A study of Mus musculus with 5 samples.

Results

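The miR-106b~25 cluster gives rise to 6 mature miRNAs, the 2 arms of each of 3 hairpins, and all 6 were carried by the array among its 1122 mouse miRNAs. They were chosen by name, miR-106b, miR-93 and miR-25 with their 5p and 3p arms, and the rule uses no measured value, although earlier results of these data were known when the cluster was picked. The question was whether the miRNAs of this cluster change, together or one by one, when dendritic cells meet flagellin, the bacterial protein that TLR5 recognizes. Bone marrow cells of C3H/HeJ mice, 6 weeks old per the study's methods, were grown with rmGM-CSF and rmIL-4 into dendritic cells (BMDCs), and CD11c+ cells were sorted with magnetic beads. C3H/HeJ mice carry a defective TLR4, and both groups share this strain, the cytokines and the sort. The sorted BMDCs were kept for 24 h with 100 ng/mL flagellin from Salmonella typhimurium (3 arrays) or in medium alone (2 arrays). No label says whether the arrays of a group came from separate cultures or animals, so p-values measure only the spread between these arrays, which may be technical.

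The hairpins of miR-106b, miR-93 and miR-25 lie within the gene Mcm7, which encodes a subunit of the helicase that unwinds DNA at replication, and they are made from its transcript. Each hairpin is cut to a duplex, 1 strand of which (the guide) is usually kept in the silencing complex while the other (the passenger) is mostly degraded. The guide pairs with messenger RNAs through its seed, bases 2 to 8. miR-106b-5p and miR-93-5p carry the seed of the miR-17 family, and miR-25-3p carries that of the miR-92 family. These families are known for restraining cell cycle inhibitors and pro-apoptotic proteins, and the related miR-17~92 cluster is known for its part in blood cell development.

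In RefSeq (GRCm38.p6), Mcm7 spans chromosome 5, 138164583 to 138172111, on the minus strand. The hairpins follow one another in the order miR-106b (138165737 to 138165818), miR-93 (138165523 to 138165610) and miR-25 (138165321 to 138165404), 498 bases from end to end. Gaps of 126 and 118 bases separate them. The 3 hairpins are printed 5′ to 3′ to show where both arms sit, with the 2 mature arms in capitals:
Mir106b: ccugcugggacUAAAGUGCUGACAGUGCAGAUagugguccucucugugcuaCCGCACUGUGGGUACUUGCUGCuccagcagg
Mir93: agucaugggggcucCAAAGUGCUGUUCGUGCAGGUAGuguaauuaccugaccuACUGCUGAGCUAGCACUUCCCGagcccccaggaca
Mir25: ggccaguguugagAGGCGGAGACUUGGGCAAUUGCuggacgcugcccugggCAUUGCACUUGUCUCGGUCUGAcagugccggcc

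The 6 mature miRNAs are given with the seed in capitals. miR-106b-5p and miR-93-5p share a seed, and no other pair does:
mmu-miR-106b-5p: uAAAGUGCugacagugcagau
mmu-miR-106b-3p: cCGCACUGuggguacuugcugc
mmu-miR-93-5p: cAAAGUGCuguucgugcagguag
mmu-miR-93-3p: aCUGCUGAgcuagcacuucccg
mmu-miR-25-5p: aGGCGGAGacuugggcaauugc
mmu-miR-25-3p: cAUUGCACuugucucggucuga

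The miRNAs of the same seeds outside the cluster that were detected on all 5 arrays come from other loci. They are shown because they resemble the members in sequence beyond the seed:
mmu-miR-17-5p: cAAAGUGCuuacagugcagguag
mmu-miR-20a-5p: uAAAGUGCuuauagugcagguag
mmu-miR-20b-5p: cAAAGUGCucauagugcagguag
mmu-miR-92a-3p: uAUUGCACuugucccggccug

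Each miRNA is read by 2 to 4 DNA probes that are complementary to its 3′ end and differ in length, so that the shorter probes leave out bases toward the seed. The probes of the 4 detected members are printed with the bases beyond the shortest probe in capitals, for miR-106b-3p the shortest and the longest of its 4:
miR-106b-5p, 16 nt: atctgcactgtcagca
miR-106b-5p, 17 nt: atctgcactgtcagcaC
miR-93-5p, 15 nt: ctacctgcacgaaca
miR-93-5p, 16 nt: ctacctgcacgaacaG
miR-25-3p, 17 nt: tcagaccgagacaagtg
miR-25-3p, 18 nt: tcagaccgagacaagtgC
miR-106b-3p, 12 nt: gcagcaagtacc
miR-106b-3p, 15 nt: gcagcaagtaccCAC
The longest stretch that a probe of miR-93-5p shares with miR-17-5p, miR-20a-5p or miR-20b-5p is 10 nt. For miR-106b-5p it is 9 nt, with miR-17-5p and miR-18a-5p, and for miR-25-3p 9 nt, with miR-92a-3p. Whether the probes also bind these relatives was not tested.

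Values are total gene signals, as the scanner software gave them. This signal adds up those probes of a miRNA that exceed 3 times their error, and where none does, the miRNA counts as undetected. Between 292 and 317 mouse miRNAs were detected per array, 277 of them on all 5 arrays. For comparison each signal was divided by its array's 75th percentile over these 277, which lay between 211 and 293, and transformed to log2. The 3 myeloid and haematopoietic marker miRNAs were detected on every array, with summed signals between 3913 and 6580. Of 15 markers of erythroid, endothelial, stromal and epithelial cells, 10 were detected on no array, and the summed signal of the 15 came to 29.5, 99.1 and 5.60 after flagellin, compared with 23.7 and 5.04 in medium alone. Their part in the results below was not tested. All arrays were on 1 slide, where the medium arrays occupied array column 4, flagellin replicates 1 and 2 column 2, and flagellin replicate 3 column 3. The effects of column and of treatment cannot be told apart.

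Of the 6 members, 4 were detected on all 5 arrays, namely the 3 guide strands miR-106b-5p, miR-93-5p and miR-25-3p, and the passenger strand miR-106b-3p. The passenger strands miR-93-3p and miR-25-5p were detected on none. None of the 4 detected members passed the test for a difference with flagellin: limma called 0 of 4 at an adjusted p under 0.05, and 0 of 4 had an unadjusted p under 0.05. Over all 307 miRNAs tested, limma called 2 (0.651%), miR-5112 and miR-466i-3p, each of them lower after flagellin, and 18 (5.86%) had an unadjusted p under 0.05. Both called miRNAs were detected only on the 2 arrays in medium alone, and passed the detection filter through that group. On the flagellin arrays they had the common floor value (defined below), so the size of their differences depends on it. It was -0.79 for miR-5112 and -1.06 for miR-466i-3p, compared with -4.11 and -4.38 with a floor 10 times lower. The shared floor value also leaves no spread among the flagellin arrays, so the calls rest in part on it. The residual SD, the spread of log2 values within groups, was 0.054 for miR-5112 and 0.017 for miR-466i-3p. Its median over the miRNAs detected on all arrays was 0.132. The log2 differences of the 4 members, flagellin minus medium alone, were all above 0, as were 159 of the 307 miRNAs. Their median was 0.079, beside 0.0095 over the 307. The 4 members belong to 1 cluster and were read on the same arrays, so their shared sign is not 4 separate observations. All flagellin values lay above both medium values for 0 of the 4, compared with 35 of the 307 (11.4%).

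miR-106b-5p, the miR-17-family guide of the first hairpin, gave total gene signals of 657, 666 and 393 in BMDCs treated with flagellin and of 533 and 485 in medium alone. After scaling, the log2 values were 1.23, 1.18 and 0.90 after flagellin, compared with 0.92 and 0.98 in medium. Flagellin replicates 1 and 2 lay above both medium arrays and flagellin replicate 3 lay below both, so the groups overlapped. The log2 difference was 0.15 (SE 0.13, limma adjusted p = 0.859), a fold of 1.11 with a 95% interval from 0.883 to 1.40. An increase of more than 1.40-fold or a decrease to less than 0.883 of the medium level thus lay outside the interval.

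miR-93-5p, the guide with the same seed from the second hairpin, gave 519, 487 and 358 with flagellin and 450 and 412 with medium alone. Its log2 scaled values were 0.88, 0.73 and 0.77 after flagellin, compared with 0.67 and 0.74 in medium. Flagellin replicate 1 was the highest of the 5, and flagellin replicate 2 fell between the medium arrays. The log2 difference was 0.086 (SE 0.083, limma adjusted p = 0.859), a fold of 1.06 with a 95% interval from 0.912 to 1.24. Without flagellin replicate 1 the difference was 0.0018. That fit also set the scaling anew on the arrays kept, so the drop does not come from that array's value alone.

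miR-25-3p, the guide of the last hairpin, gave 299, 284 and 208 with flagellin and 267 and 238 with medium alone. Its log2 scaled values were 0.090, -0.047 and -0.016 after flagellin, compared with -0.079 and -0.047 in medium. Flagellin replicate 2 and medium replicate 2 had almost the same value, and the groups met there. The log2 difference was 0.072 (SE 0.079, limma adjusted p = 0.859), a fold of 1.05 with a 95% interval from 0.910 to 1.21. Without flagellin replicate 1, again with the scaling set anew on the arrays kept, the difference was -0.0089, so its sign was not stable.

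miR-106b-3p, the passenger strand of the first hairpin, was close to the limit of detection, with total gene signals of 3.96, 3.49 and 3.52 after flagellin and 4.14 and 3.12 in medium alone. The log2 scaled values were -6.15, -6.37 and -5.90 after flagellin, compared with -6.09 and -6.30 in medium. The value of flagellin replicate 2 stood at the common floor, the highest of the 5 arrays' lowest detected scaled values, to which it was raised although the miRNA was detected there. The 2 medium values lay inside the range of the 3 flagellin values. The log2 difference was 0.054 (SE 0.17, limma adjusted p = 0.948), a fold of 1.04 with a 95% interval from 0.763 to 1.41. It was -0.098 without flagellin replicate 3 and -0.076 without medium replicate 2.

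**Figure D1:**
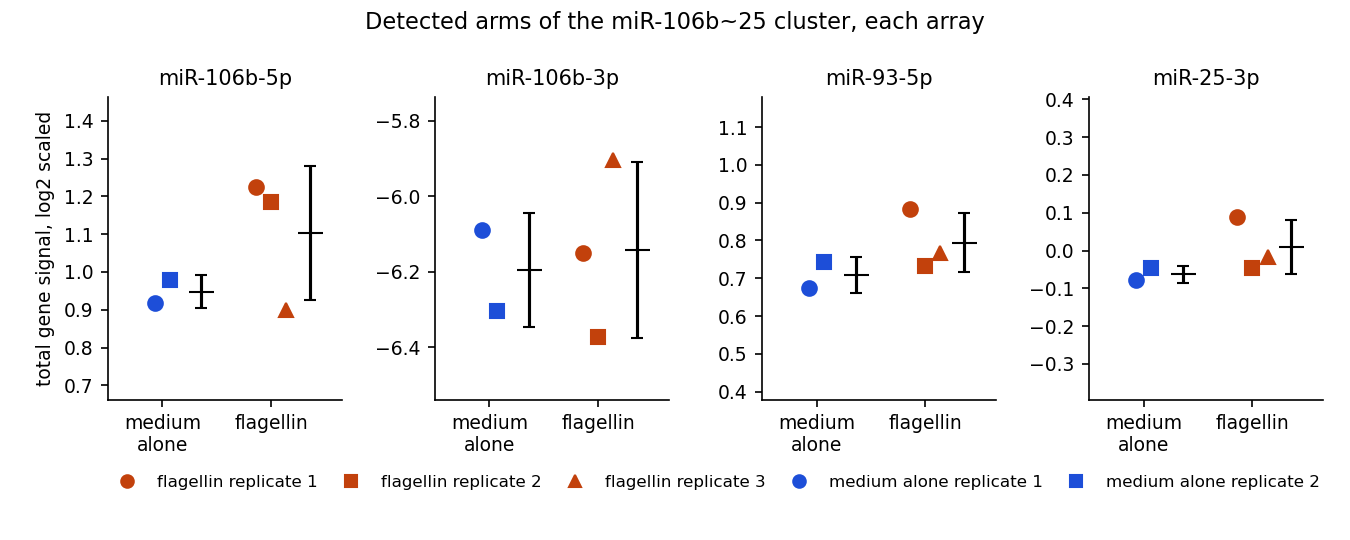
Total gene signal on the log2 scale, scaled to the 75th percentile of each array, for the 4 members detected on all 5 arrays. Each symbol is 1 array (medium alone in blue, flagellin in orange), and the black mark and bar show the mean and SD of the group. All panels span the same height. The groups overlap in each panel, and miR-106b-5p on flagellin replicate 3 (0.90) stands apart from the other 2 flagellin arrays (1.23 and 1.18).

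The detection call of each arm follows from its single probes. The 6 probes of the 3 guide strands passed the rule of 3 errors on all 5 arrays, at 3.17 to 3.32 times the limit. Their errors came to 10.5% of the signal or slightly less, so this multiple has a ceiling for bright probes and says nothing of how bright they were. For miR-106b-5p the 17 nt probe gave between 63.2 and 64.2% of the total gene signal on each array. The 16 nt probe of miR-93-5p gave between 79.1 and 81.4%, and the 18 nt probe of miR-25-3p between 73.8 and 76.4%. The share of the longer probe thus differed little between the 5 arrays.

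The 2 probes of a guide strand were also set side by side for the difference between groups. For miR-106b-5p the log2 difference was 0.18 by the 16 nt probe and 0.14 by the 17 nt probe. For miR-93-5p it was 0.053 (15 nt) and 0.095 (16 nt). For miR-25-3p the probes did not share a sign, with -0.0098 by the 17 nt and 0.099 by the 18 nt probe. These probe differences were not tested one by one.

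Among the passenger strands, miR-106b-3p was read by 4 probes of 12 to 15 nt, and the 15 nt probe alone passed, on 5 of 5 arrays, at 1.21 to 1.63 times its limit and with an error between 20.5 and 27.5% of its signal. The 12, 13 and 14 nt probes passed on none. miR-93-3p has 4 probes of 13 to 16 nt, and the highest signal of any of them on any array was 0.569, where the lowest limit of these probes was 2.19. miR-25-5p has 2 probes of 14 and 15 nt, all of whose signals were below 0 after the background was subtracted. These 2 arms therefore have only a bound on each array, and no fold can be given for them.

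**Figure D2:**
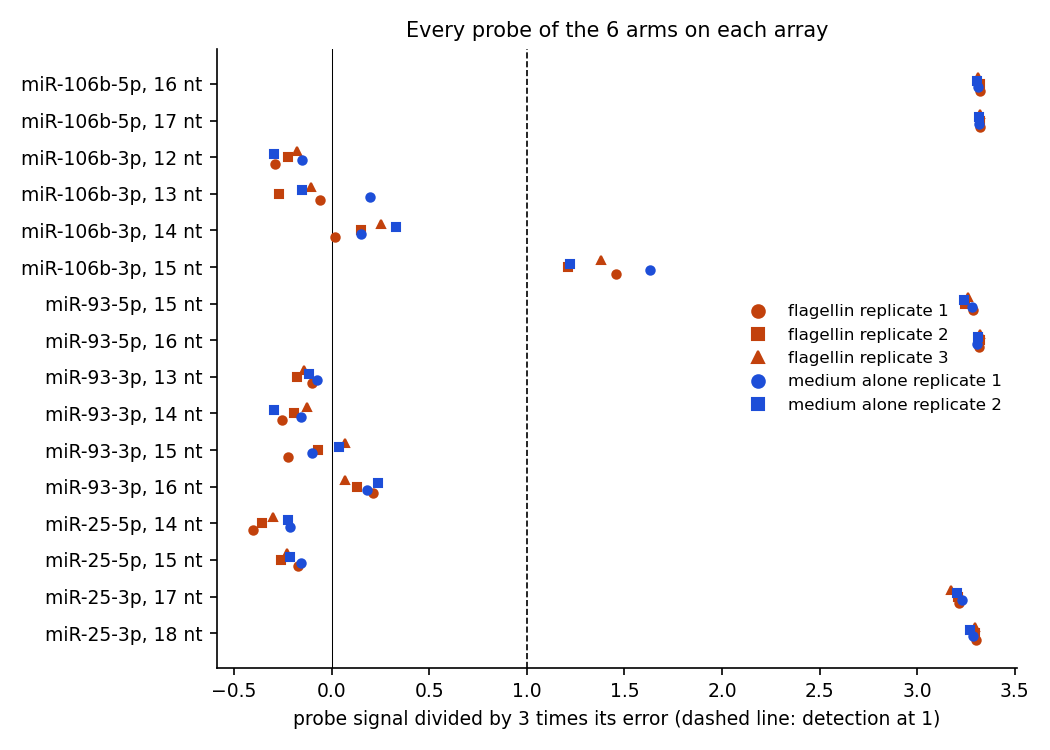
Signal of each probe of the 6 arms divided by 3 times its error, on each of the 5 arrays. Symbols are single arrays, and the dashed line at 1 is the detection rule. The 6 probes of the guide strands sit at 3.17 to 3.32, the 15 nt probe of miR-106b-3p sits at 1.21 to 1.63, and the other 9 probes are below 1 on every array.

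The 3 guide strands come from 1 transcript, and their ratios show whether they moved together from array to array. Because probes differ in affinity, a ratio is given only as its departure, on the log2 scale, from its own mean over the 5 arrays. The ratio of miR-93-5p to miR-25-3p departed by 0.014, 0.00098 and 0.0028 on the flagellin arrays and by -0.027 and 0.0091 on the medium arrays. Its SD over the 5 arrays was 0.0157. Over all 38226 pairs of the 277 miRNAs the median SD was 0.210, and over the 2485 pairs among the 71 miRNAs whose mean scaled signal was at least that of miR-25-3p it was 0.169. Of these 2485 pairs, 4 had a smaller SD than miR-93-5p and miR-25-3p. In these scaled total gene signals miR-93-5p and miR-25-3p thus kept nearly the same ratio on all arrays, whichever group they belonged to. The difference of this ratio between groups depended on the processing. It was 0.015 here, 0.062 with quantile normalization and 0.051 with the probe length trend removed, and 0.0073 with probe-level normexp values.

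The ratio of miR-106b-5p to miR-93-5p departed by 0.061, 0.17 and -0.15 after flagellin, compared with -0.038 and -0.045 in medium, with an SD of 0.120 over the 5 arrays. For miR-106b-5p to miR-25-3p the departures came to 0.075, 0.17 and -0.15 after flagellin, compared with -0.064 and -0.035 in medium, with an SD of 0.124. In both ratios flagellin replicates 1 and 2 were the highest and flagellin replicate 3 was the lowest of the 5. Of the 2485 pairs of bright miRNAs, 31.0% had a smaller SD than the former ratio and 32.3% a smaller SD than the latter, so both varied less than the median pair and more than miR-93-5p to miR-25-3p.

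No difference in a ratio between the groups passed the test. The difference, flagellin minus medium on the log2 scale, was 0.069 for miR-106b-5p to miR-93-5p (exact permutation p = 0.7), 0.083 for miR-106b-5p to miR-25-3p (exact permutation p = 0.6) and 0.015 for miR-93-5p to miR-25-3p (exact permutation p = 0.4). For the 2 arms of the first hairpin, miR-106b-5p to miR-106b-3p, it was 0.10 (exact permutation p = 0.8). That ratio departed from its mean by 0.17, 0.35 and -0.40 on the flagellin arrays and by -0.20 and 0.077 on the medium arrays, so both medium values lay inside the flagellin range. The tests were two-sided over the 10 splits of 3 arrays against 2, which cannot give a p below 0.1. After Benjamini-Hochberg adjustment over the 4 ratios, the exact permutation p was 0.8 for each.

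**Figure D3:**
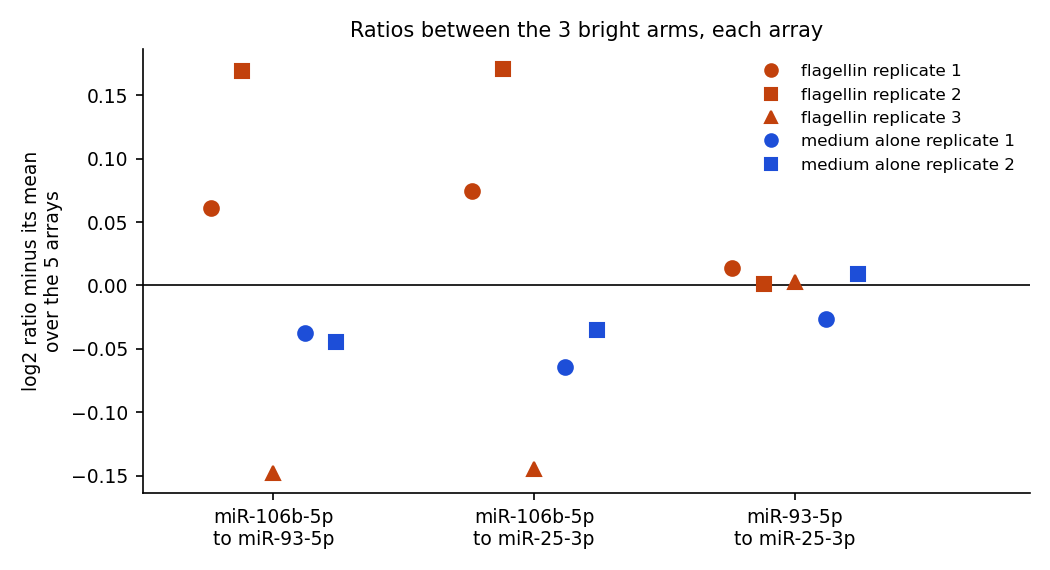
Log2 ratios between the 3 guide strands on each array, each minus its mean over the 5 arrays. Symbols are single arrays (medium alone in blue, flagellin in orange). The ratio of miR-93-5p to miR-25-3p stays between -0.027 and 0.014, while both ratios that contain miR-106b-5p run from -0.15 on flagellin replicate 3 to 0.17 on flagellin replicate 2.

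The spread within groups differed among the members in the same way. The residual SD of the log2 values was 0.0601 for miR-25-3p and 0.0699 for miR-93-5p, lower than for most of the 277 miRNAs detected on all arrays (percentiles 3.97 and 9.75, median 0.132). miR-106b-5p had 0.147 (percentile 57.0) and miR-106b-3p 0.210 (percentile 78.0). The mean of flagellin replicates 1 and 2 exceeded flagellin replicate 3 by 0.31 on the log2 scale for miR-106b-5p, by 0.042 for miR-93-5p and by 0.038 for miR-25-3p, with a median of -0.064 over the 277 miRNAs. For miR-106b-3p this difference was -0.36. Among the relatives, miR-19a-3p (0.35), miR-18a-5p (0.28), miR-19b-3p (0.28), miR-20a-5p (0.17) and miR-20b-5p (0.16) were also lower on flagellin replicate 3, whereas miR-17-3p (0.012), miR-17-5p (-0.0020) and miR-92a-3p (-0.095) differed by less than 0.1 on this scale. Larger differences of the same direction were seen for the myeloid markers miR-142-3p (0.42) and miR-142-5p (0.47) and for the endothelial marker miR-126-3p (1.33). They were also seen for the erythroid marker miR-451 (1.45), the stromal marker miR-199a-3p (2.13) and the epithelial marker miR-200c-3p (0.41). miR-451, miR-199a-3p and miR-200c-3p were undetected and at the floor on flagellin replicate 3. For the myeloid marker miR-223-3p the difference was 0.010. Flagellin replicate 3 is also the array in a column of its own among the flagellin arrays, and the part of array position or of these markers in this was not tested.

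Leaving out flagellin replicate 3 gave the largest difference for miR-106b-5p among the fits without 1 array, 0.23 with a limma adjusted p of 0.247. In that fit miR-106b-5p, as 1 of the 4 members, and 58 of all 307 miRNAs tested had an unadjusted p under 0.05, and 0 were called. Leaving out flagellin replicate 1 gave 0.054, the smallest value.

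The relatives by seed and by cluster were read in the same fit. Of the 4 miRNAs listed for the seed AAAGUGC outside the cluster, 3 were measured and detected on all arrays, and miR-106a-5p was not analysed here. miR-20a-5p gave 679, 634 and 428 with flagellin and 587 and 523 with medium, a log2 difference of 0.065. miR-20b-5p gave 308, 293 and 197 with flagellin and 282 and 246 with medium, a difference of 0.013. miR-17-5p was dimmer, at 39.6, 36.6 and 28.0 after flagellin compared with 34.1 and 31.8 in medium, and its difference was 0.087. None of these 3 was called, and their probes share up to 13 nt (miR-20b-5p with miR-20a-5p), so their signals are uncertain as those of single miRNAs.

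Of the 5 miRNAs listed for the seed AUUGCAC outside the cluster, miR-92a-3p was tested. It gave 120, 114 and 91.6 with flagellin and 102 and 91.6 with medium alone, and its log2 difference of 0.18 was the largest among members and relatives (95% interval from -0.040 to 0.40, limma adjusted p = 0.859). miR-92b-3p, miR-363-3p and miR-367-3p were detected on no array and miR-32-5p on 1, flagellin replicate 2.

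The miR-17~92 cluster, the larger paralogue on another chromosome, had 12 arms on the array, of which 7 were tested, 4 were detected on none and miR-20a-3p on 1. All 7 log2 differences were above 0, as were 159 of the 307 tested, with a median of 0.087, and 0 were called. The 7 belong to 1 cluster and were read on the same arrays, so their shared sign is not 7 separate observations. For miR-19b-3p and miR-92a-3p the signal cannot be assigned to this cluster alone. The X-linked paralogue, which runs from miR-106a to miR-363-3p, had 11 arms on the array, of which 8 were detected on none. The 3 tested were miR-20b-5p and 2 miRNAs whose mature form miR-17~92 also encodes, miR-19b-3p and miR-92a-3p, and 0 of them were called. Counting each miRNA once, 8 relatives were tested and 0 had an unadjusted p under 0.05 in limma.

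**Figure D4:**
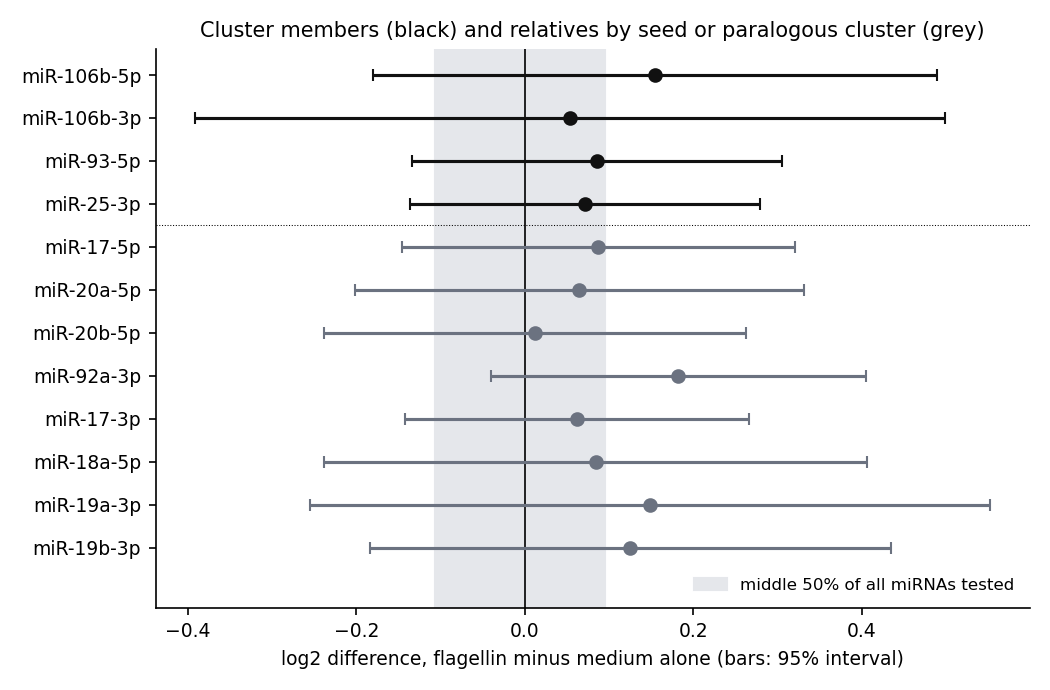
Log2 difference, flagellin minus medium alone, with its 95% interval from limma, for the 4 detected members (black) and the 8 tested relatives (grey). The grey band holds the middle 50% of the differences of the 307 miRNAs tested. Every point lies between 0.013 and 0.18, and every interval includes 0.

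The miRNAs whose course over the 5 arrays was most like the mean course of the 4 detected members were sought among the 273 other miRNAs detected on all arrays. Likeness was the root mean square difference, on the log2 scale and over 5 arrays, between a miRNA's values centred on their mean and the mean of the centred values of the 4 detected members. The nearest were miR-301b-3p (0.017), miR-425-5p (0.0188), miR-223-3p (0.0198), miR-130b-3p (0.027) and miR-378b (0.0326), with a median of 0.134 over the 273. Among these is miR-223-3p, the myeloid miRNA. Each member is part of the mean course, which makes its own distance smaller. Even so, miR-106b-3p (0.151) lay farther from it than the median of 0.134, and miR-106b-5p (0.119) not far below that median. miR-93-5p was at 0.0290 and miR-25-3p at 0.0206. The mean course thus describes miR-93-5p and miR-25-3p better than miR-106b-5p and miR-106b-3p. Among seed relatives miR-17-5p ranked 9 (0.0364), miR-92a-3p 40, miR-20a-5p 49 and miR-20b-5p 54. The order rests on 5 arrays and is a description.

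**Figure D5:**
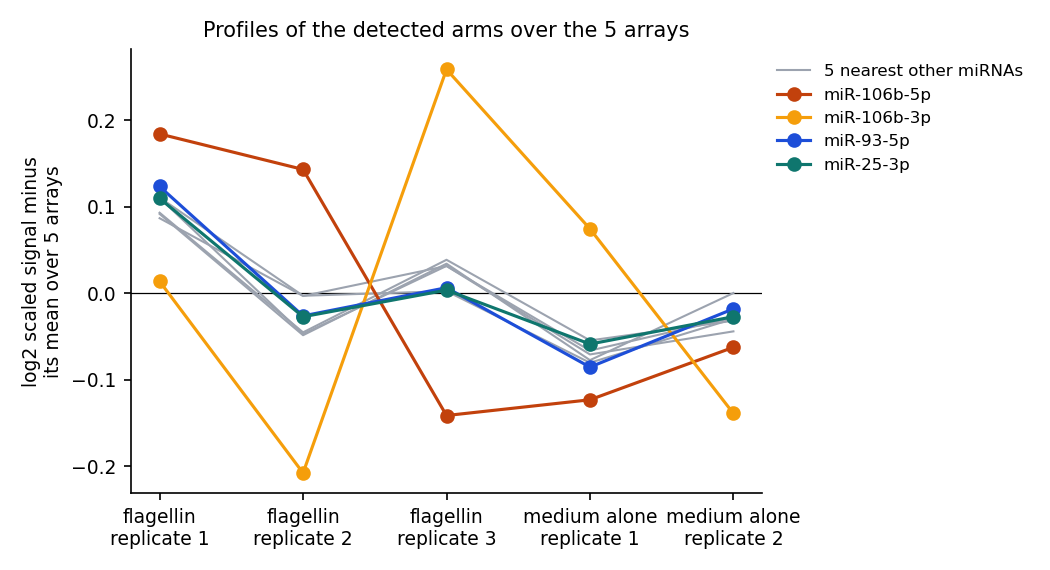
Log2 scaled signal of the 4 detected members on each array, minus the mean over the 5 arrays, with the 5 nearest other miRNAs in grey. The lines join the values of 1 miRNA and carry no order in time. miR-93-5p and miR-25-3p run within the grey lines or close to them, miR-106b-5p is high on flagellin replicates 1 and 2 and low on replicate 3, and miR-106b-3p is highest on flagellin replicate 3.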

How the data were processed

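Per the labels and the study's methods, RNA from 5 BMDC samples was labelled with Cy3 and hybridized to 1-colour Agilent mouse miRNA arrays. The authors extracted spot and gene intensities with Feature Extraction 10.7 and deposited these intensity files. The total signals in them have background already subtracted, and the spot and background signals before subtraction are given too. No spot was saturated, and between 5.2 and 6.28% of spots were outliers. The number of arrays limits the precision. Log2 values that the authors deposited separately were set against the intensities. Each of their columns equalled the log2 of the total gene signal less an array-wide constant (between 6.55 and 6.91), and the column medians were -10.22, -10.23 and -9.88 for flagellin and -10.23 and -10.05 for medium.

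Here, total gene signals were scaled to the 75th percentile of the array, taken over the 277 mouse miRNAs with a detection call on every array. Scaled values under 0.0121 were set to it before taking log2 (-6.37). The 307 miRNAs detected on at least 2 arrays were tested in limma 3.58.1 (R 4.3.3), without covariates, with 3 residual degrees of freedom and Benjamini-Hochberg adjustment. Control spots and viral miRNAs entered neither scaling nor tests. Ratios were tested by exact permutation. The fit was tested on simulated data. Python 3.11.15 with pandas 2.3.3, numpy 2.4.6 and matplotlib 3.10.9 served for the rest.

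The members, the lists of relatives and marker miRNAs, and the tests were chosen with earlier results of these data known. The miRNAs named are the members, the listed relatives and markers, the 5 nearest in course and those called. Sequences and positions are those of RefSeq (GRCm38.p6), matched by name for all 6 members. The file headers name mm9, and their coordinates were not used. Probe sequences are those of the array files. Alternatives covered scaling, floor, detection filter and rule, probe-level values, the authors' values, test, blocks for replicate number, array row and array column, probe length, and leaving out each array. With an array left out, the scaling, the floor and the detection filter were set anew on the arrays kept.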

Additional observations from a re-analysis of the deposited data

How the results depend on the processing

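Over all 21 alternatives the limma call stayed at 0 of the members and 0 of the 8 relatives. The count over all miRNAs, 2 as reported, was less stable. It was 0 with no scaling, with the 75th percentile taken over every mouse miRNA, with quantile normalization, without the detection rule, at the probe level in both settings and with the array row as a block (8 to 28 unadjusted), 0 to 0 with 1 array left out in turn (4 to 58 unadjusted), 1 with miRNAs detected on all 5 arrays, no filter, the limma trend, array column as a random block or the probe length trend removed, and 4 with a floor 10 times lower or the authors' values. The methods' t-test after Benjamini-Hochberg adjustment also gave 2, miR-466i-3p and miR-483-5p (log2 difference -0.043), and not miR-5112. Like miR-466i-3p, miR-483-5p stood at the floor on every flagellin array, and its residual SD was 0.0019, so this call rests on the floor too. miR-106b-5p ranged over the alternatives from 0.054 to 0.34 (adjusted p from 0.247 to 1). Taking that percentile over every mouse miRNA moved the median of the 307 to 0.19, to which changes there are relative.

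miR-106b-3p changed sign with no scaling (-0.00045), no detection rule (-0.066) and probe-level normexp values (-0.012), and the arm ratio with quantile normalization (-0.085); the cause was not tested. Leaving out each array gave ranges of 0.054 to 0.23 for miR-106b-5p, -0.098 to 0.16 for miR-106b-3p, 0.0018 to 0.10 for miR-93-5p and -0.0089 to 0.083 for miR-25-3p. Without 1 array in turn, the ratio differences ranged from -0.054 to 0.33 (miR-106b-5p to miR-106b-3p), -0.0024 to 0.16 (to miR-93-5p) and 0.015 to 0.17 (to miR-25-3p). For miR-93-5p to miR-25-3p they ranged from -0.0033 to 0.032, and over all alternatives up to 0.062 (quantile normalization). Signs turned without flagellin replicate 2 for the arm ratio (-0.054) and miR-106b-5p to miR-93-5p (-0.0024), and without medium replicate 1 for the arm ratio (-0.036) and miR-93-5p to miR-25-3p (-0.0033).

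The labels link samples of the 2 groups only by a replicate number. The deviations of same-numbered arrays from their group means correlated at -0.043 and -0.076. With 2 medium arrays the deviations in medium mirror each other, so these correlations cannot show whether same-numbered arrays belong together. With the replicate block, 0 miRNAs were called (39 unadjusted), miR-106b-5p was at 0.26 (adjusted p = 0.336 in limma) and miR-106b-3p at -0.065. Replicate number 3 occurs only with flagellin, so the block takes that array out of the comparison. These differences are therefore those of flagellin replicates 1 and 2 from medium. With 5 arrays, signal near the limit of detection restricts what can be said of miR-106b-3p, and miR-93-3p and miR-25-5p have only bounds.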
